A study of Osmia excavata with 6 samples.

Results

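Hypoxia response genes encode the machinery by which animal cells sense low oxygen and answer it. They were taken here as the rows of the expression table whose protein description ends with a bee genus and names hypoxia, the EGLN prolyl hydroxylases, von Hippel-Lindau, the aryl hydrocarbon receptor nuclear translocator homolog or a globin. Among the matches, members were to be chosen by mean TPM (a level scaled for transcript length and library size) over all 6 libraries, keeping the highest 10. The name search matched 7 of the 37061 genes in the table, so the limit of 10 removed none, and all 7 are described. The name pattern matched 8 more genes of worm or mammal, which are not members.

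The libraries were made from Osmia excavata, a solitary mason bee whose adults leave a cocoon after winter. The control group had 3 libraries labelled control, and the immersion group had 3 libraries labelled Water immersion, whose titles call them a decocooning group. The comparison asks which transcripts differ when immersion is used to promote decocooning, and wetting and leaving the cocoon cannot be told apart in it. The labels give the species where a tissue would stand, and anything on body part, sex, age, pooling or time after immersion is not given in the sources used here. Nothing says that replicates are separate animals, so p-values measure only the spread between these libraries.

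In animals with this pathway the alpha subunit of hypoxia-inducible factor (HIF) is made and destroyed without pause while oxygen is present. A prolyl hydroxylase of the EGLN family marks it, and the von Hippel-Lindau protein then brings it to a ubiquitin ligase. In low oxygen the alpha subunit stays, pairs with the constitutive beta subunit, called tango (tgo) in Drosophila, and switches on genes of glycolysis, tracheal growth and growth restraint. Much of this control acts on protein, so transcript levels show only part of it.

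Estimated counts came to between 16765886 and 19953734 per library, and bee and other Hymenoptera genes held 92.6% to 94.5% of them. The libraries did not fall cleanly by treatment. Caenorhabditis matches held 3464 CPM (estimated counts scaled to a fixed library total) in control 1, at most 0.908 in controls 2 and 3, and 14053 to 14978 after immersion, and human, mouse and rat matches were also far higher in control 1 and the immersion libraries than in controls 2 and 3. Control 1 therefore stands apart from the other controls, and the members whose change depended on it are also given without it and with it as the only control. In the latter fit 1 control library is set against 3 immersion libraries and is assumed to vary like the others, while controls 2 and 3 add only to the estimate of spread, so its values are given for their size and its lack of calls shows nothing about stability. Long transcripts also held more of controls 2 and 3: the mean gene length weighted by TPM was 2684 and 3104 bases there, against 2329 in control 1 and 2109 to 2253 after immersion.

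The levels, which the choice of members used, ran from 130 TPM on average over the 6 libraries for HIF 3-alpha, through 61.8 for EGLN1, 44.2 for the von Hippel-Lindau tumor suppressor, 32.1 for tgo, 29.4 for HIF 1-alpha-like and 29.3 for hypoxia up-regulated protein 1, to 1.9 for cytoglobin-2. HIF 3-alpha thus stood above 92.3% of the Hymenoptera genes in the table and cytoglobin-2 above 9.83%. The neighbours tgo, HIF 1-alpha-like and hypoxia up-regulated protein 1 lay within the spread of their libraries of each other. Of the 7 genes, 6 passed the filter on low counts and were tested. Cytoglobin-2 did not.

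**Figure D1:**
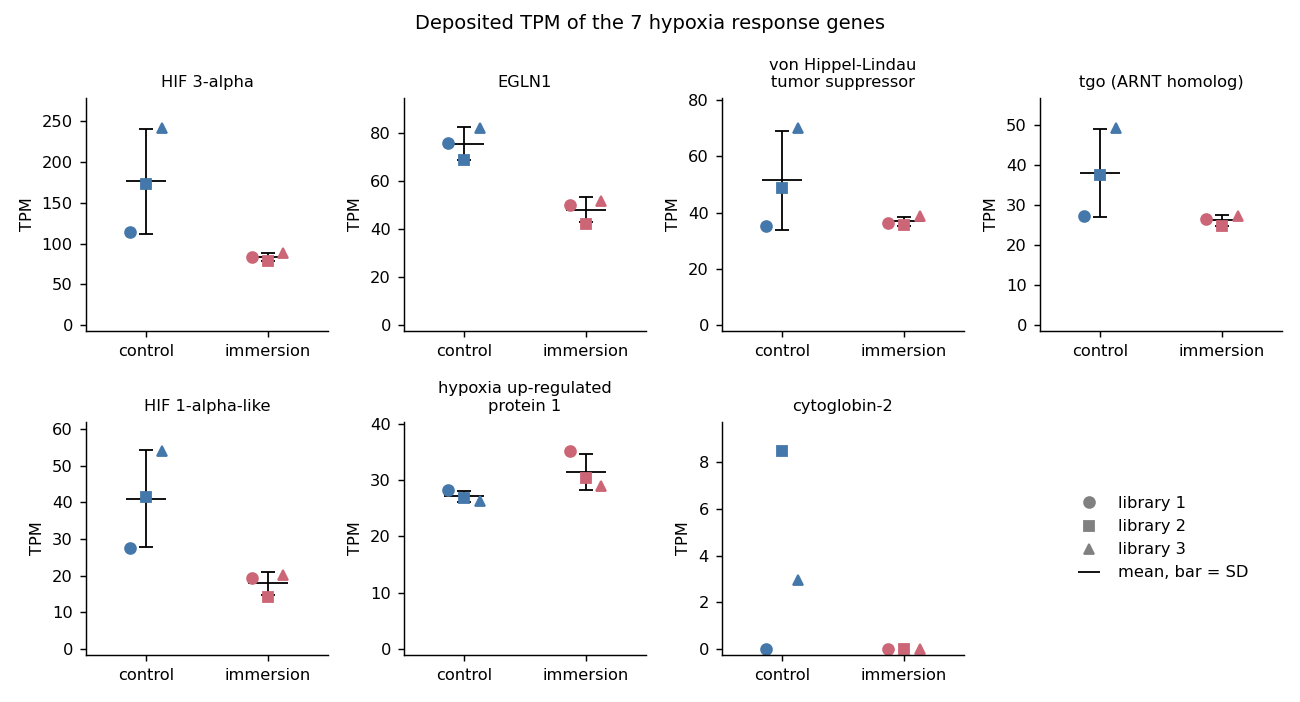
Deposited TPM (vertical axes, from 0) of the 7 genes in each of the 3 control and 3 immersion libraries, with the mean and SD of each group except for cytoglobin-2. Controls 2 and 3 lie above the immersion libraries for HIF 3-alpha, HIF 1-alpha-like and tgo, control 1 lies close to or between them, and all controls of EGLN1 lie above all immersion libraries.

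With adjusted p held to 0.05, edgeR's quasi-likelihood test called 0 of 6 members and 0 of the 9250 tested bee genes (0%). At an unadjusted p under 0.05 there were 4 members, all lower after immersion, where 20.6% of the tested bee genes were lower at that level and 34.8% reached it in either direction. The same 4, HIF 3-alpha, HIF 1-alpha-like, tgo and EGLN1, had groups that did not overlap in normalised CPM (CPM scaled by TMM factors), which held in the lower direction for 22.2% of bee genes and in either direction for 46.2%. The same genes were apart in TPM, as were 19.8% of bee genes in the lower direction. The median log2 fold change (immersion minus control) over the 6 tested members was -0.55, and over all tested bee genes it was 0.02. Fewer cells of a type and less RNA per cell cannot be told apart in these bulk libraries.

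The transcript described as hypoxia-inducible factor 3-alpha (TRINITY_DN801_c0_g2, 9558 bases, 7 assembled transcripts) is the most abundant member, and its KEGG entry is hypoxia-inducible factor 1 alpha. It has no Swiss-Prot match and no Pfam domain listed, so its name rests on the description and the KEGG entry. It stood at 114.03, 173.18 and 242.19 TPM in controls 1, 2 and 3 and at 83.21, 79.32 and 88.75 TPM after immersion. Every immersion library was below every control, and the controls differed among themselves by more than the immersion libraries did. Normalised CPM averaged 556 ± 195 (SD, n = 3) in controls and 272 ± 11 (SD, n = 3) after immersion. The fitted log2 fold change was -1.03 ± 0.26 (SE), or 0.489 of the control level (edgeR quasi-likelihood, adjusted p = 0.0907). Without control 1 it was -1.24 (adjusted p = 0.00737 in edgeR), and with control 1 as the only control it was -0.47.

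A further gene, described as hypoxia-inducible factor 1-alpha-like (TRINITY_DN9494_c0_g1, 5780 bases, 8 assembled transcripts), had the smallest p of the members. Its Pfam domain is a PAS domain, the dimerization fold of this transcription factor family, but its Swiss-Prot match is Npas2, a clock factor of mouse from the same family, and it has no KEGG entry. The table's own columns thus disagree on whether it is an alpha subunit, and it is named here by its description. It stood at 27.62, 41.4 and 53.9 TPM in controls 1, 2 and 3 and at 19.33, 14.23 and 20.1 TPM after immersion. All immersion libraries were below all controls, with control 1 the nearest to them. Normalised CPM averaged 155 ± 43.7 (SD, n = 3) and 65.9 ± 15.9 (SD, n = 3). The fitted log2 fold change was -1.24 ± 0.27 (SE) (edgeR quasi-likelihood, adjusted p = 0.0907). The value was -1.43 without control 1 (adjusted p = 0.00748 in edgeR), -1.02 without control 3 (adjusted p = 0.0459 in edgeR), and -0.75 with control 1 as the only control.

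The partner of the alpha subunits, tgo (TRINITY_DN1426_c0_g1, 5417 bases), is described as the aryl hydrocarbon receptor nuclear translocator homolog and also carries a PAS domain. It stood at 27.32, 37.5 and 49.25 TPM in controls 1, 2 and 3 and at 26.52, 24.66 and 27.15 TPM after immersion. Control 1 lay next to the immersion libraries, a gap of 0.17 TPM above the highest of them, and only controls 2 and 3 stood well above. Normalised CPM averaged 128 ± 33.3 (SD, n = 3) in controls and 90.1 ± 1.94 (SD, n = 3) after immersion. The log2 fold change was -0.51 ± 0.20 (SE, adjusted p = 0.13 in edgeR), -0.66 without control 1 (adjusted p = 0.0135 in edgeR), and -0.13 with control 1 as the only control.

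The oxygen sensor, named EGLN1 by its Swiss-Prot match (TRINITY_DN4041_c0_g1, 4300 bases, 11 assembled transcripts), is the prolyl hydroxylase that marks HIF alpha for destruction. Its KEGG entry is the HIF prolyl hydroxylase, and its domain is that of the iron- and oxoglutarate-dependent oxygenases. It stood at 75.73, 68.76 and 82.25 TPM in controls 1, 2 and 3 and at 50.19, 42.05 and 51.79 TPM after immersion. Here control 1 lay between the other controls, and the groups were apart by more than the spread within either. Normalised CPM averaged 178 ± 16.7 (SD, n = 3) in controls and 119 ± 10.2 (SD, n = 3) after immersion. The log2 fold change was -0.58 ± 0.15 (SE), or 0.668 of the control level (edgeR quasi-likelihood, adjusted p = 0.0907). It was -0.56 without control 1 (adjusted p = 0.0199 in edgeR) and -0.63 with control 1 as the only control, so its size depended less on control 1 than that of the other members with a negative change.

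The substrate receptor of the ligase, the von Hippel-Lindau tumor suppressor (TRINITY_DN11345_c0_g1, 2003 bases, Pfam domain VHL), stood at 35.45, 48.89 and 70.26 TPM in controls 1, 2 and 3. After immersion it stood at 36.26, 35.6 and 38.81 TPM. The groups overlapped, with control 1 below every immersion library. Normalised CPM averaged 42.6 ± 8.40 (SD, n = 3) and 37.1 ± 1.74 (SD, n = 3), and the log2 fold change was -0.20 ± 0.18 (SE, adjusted p = 0.422 in edgeR). It was 0.08 with control 1 as the only control, so no direction can be given.

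Hypoxia up-regulated protein 1 (TRINITY_DN21321_c0_g1, 4185 bases, Swiss-Prot match HYOU1) is a chaperone of the HSP70 family in the endoplasmic reticulum, known from mammals for its induction when oxygen or folding fails. It was the 1 member with a positive change. It stood at 28.19, 26.83 and 26.3 TPM in controls 1, 2 and 3 and at 35.11, 30.41 and 29.02 TPM after immersion. The immersion libraries lay above the controls in TPM by a small margin, while in normalised CPM the groups overlapped, at 83.6 ± 6.60 (SD, n = 3) and 101 ± 8.98 (SD, n = 3). The log2 fold change was 0.27 ± 0.14 (SE, adjusted p = 0.201 in edgeR), and it was positive without control 1 (0.34) and with control 1 as the only control (0.14).

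Cytoglobin-2 (TRINITY_DN23006_c0_g2, 289 bases), the 1 bee globin found by name, is an oxygen-binding haem protein. It had 6.23 estimated counts in control 2 and 2 in control 3, which were 8.48 and 2.94 TPM, and it is listed at 0 in control 1 and in every immersion library. In normalised CPM these were 0.373 in control 2 and 0.141 in control 3. A count of 0 allows up to 3 counts per library, or 0.154 to 0.188 normalised CPM in the libraries at 0, which is below the value of control 2 but not below that of control 3. With control 1 also at 0 the groups overlapped. Without the filter on low counts the adjusted p of this gene was 0.173 in edgeR, and no fold is given. The limits cover counting error only.

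**Figure D2:**
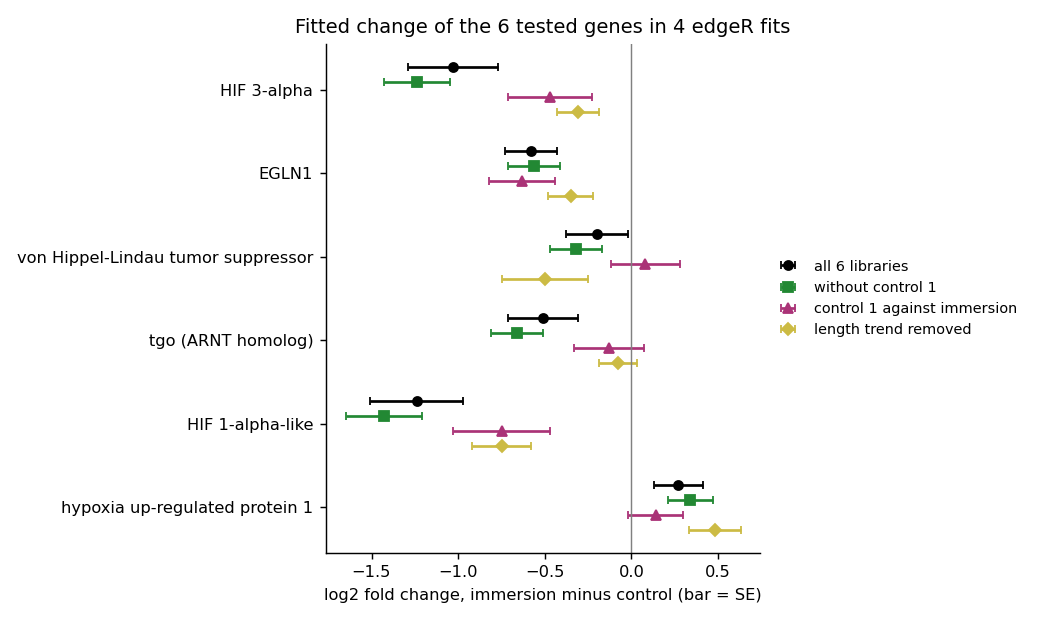
Fitted log2 fold change (horizontal axis, immersion minus control, bars SE) of the 6 tested genes in 4 edgeR fits: all 6 libraries, without control 1, control 1 as the only control, and with a trend on gene length removed. EGLN1 stays at -0.63 to -0.35, whereas tgo runs from -0.66 to -0.08.

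Other tools set different numbers of members past an adjusted p of 0.05. DESeq2 called 3 of the 6, HIF 3-alpha, HIF 1-alpha-like and EGLN1, all lower, where it called 14.8% of the bee genes lower and 7.17% higher. Limma-voom with library weights called HIF 3-alpha, HIF 1-alpha-like, tgo and EGLN1 lower and hypoxia up-regulated protein 1 higher, where it called 32.6% of the bee genes lower and 36.2% higher (68.9% in all). Those weights were 6.44 for control 2 against 0.198 and 0.158 for controls 1 and 3, so the control arm of that fit rests almost wholly on 1 library. Without control 1 edgeR called 4, HIF 3-alpha, HIF 1-alpha-like, tgo and EGLN1, where it called 26.6% of the bee genes lower, 25.7% higher and 52.3% in all. Without control 3 it called HIF 1-alpha-like, where 2.98% of the bee genes were called lower. With control 1 as the only control it called 0 members and 0.0108% of bee genes.

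Within a library the ratio of one member's TPM to another's does not depend on how the library was scaled. HIF 3-alpha per tgo was 4.17, 4.62 and 4.92 in controls 1, 2 and 3 and 3.14, 3.22 and 3.27 after immersion, and the groups did not overlap. HIF 1-alpha-like per tgo was 1.01, 1.1 and 1.09 in controls 1, 2 and 3 and 0.729, 0.577 and 0.74 after immersion, and again the groups were apart, with control 1 beside the other controls. Von Hippel-Lindau per HIF 3-alpha was 0.311, 0.282 and 0.29 in controls 1, 2 and 3 and 0.436, 0.449 and 0.437 after immersion. These 3 ratios each had a two-sided exact permutation p of 0.1, the smallest that 3 libraries against 3 allow. After adjustment over the 5 ratios computed it was 0.167. Of single bee genes 46.2% had groups apart in normalised CPM in either direction, and the share among other pairs of genes was not computed. By listed length HIF 3-alpha (9558 bases) is the longest tested member and the von Hippel-Lindau gene the shortest, and tgo has 5417 bases. The log2 fold changes of HIF 3-alpha and tgo were -1.03 and -0.51, and -0.31 and -0.08 with a trend on gene length removed. The part of length in these ratios was not tested.

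The 2 other ratios overlapped between the groups. EGLN1 per HIF 3-alpha was 0.664, 0.397 and 0.34 in controls 1, 2 and 3 and 0.603, 0.53 and 0.584 after immersion (exact permutation p = 0.4). Control 1 had the highest value of this ratio and controls 2 and 3 the lowest. HIF 1-alpha-like per HIF 3-alpha was 0.242, 0.239 and 0.223 in controls 1, 2 and 3 and 0.232, 0.179 and 0.226 after immersion (exact permutation p = 0.3), so the transcripts with an alpha-subunit description kept nearly the same proportion in all libraries but immersion 2.

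**Figure D3:**
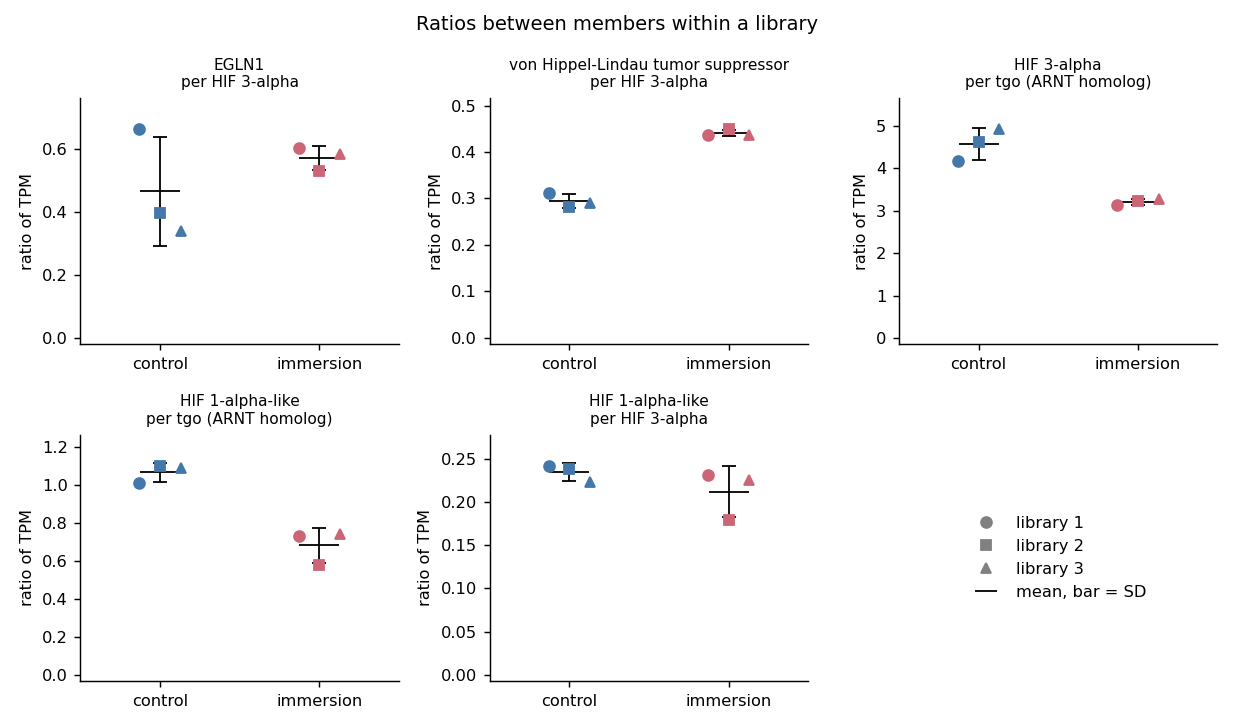
Ratio of TPM (vertical axes, from 0) between pairs of members in each library, with group mean and SD. HIF 3-alpha per tgo lies at 4.17 to 4.92 in controls and 3.14 to 3.27 after immersion, and von Hippel-Lindau per HIF 3-alpha at 0.282 to 0.311 and 0.436 to 0.449.

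Gene length moved with these differences. The 2499 tested bee genes of 4000 bases and over had a median log2 fold change of -0.47, with 83.5% of them below 0 and 46.4% lower with p below 0.05 before adjustment in edgeR, while the 2391 genes of 1000 to 2000 bases had a median of 0.44. Of the 6 tested members 5 are listed at 4000 bases and over, the von Hippel-Lindau gene being the exception. Among genes of that length the change of tgo stood above 47.5% of them and that of EGLN1 above 41.4%, whereas HIF 3-alpha stood above 11.2%, HIF 1-alpha-like above 5.16% and hypoxia up-regulated protein 1 above 94.1%. With a trend on length removed from each library, the log2 fold changes were -0.31 for HIF 3-alpha, -0.75 for HIF 1-alpha-like, -0.08 for tgo, -0.35 for EGLN1, -0.50 for von Hippel-Lindau and 0.48 for hypoxia up-regulated protein 1. None passed (lowest adjusted p among them 0.0772 in edgeR).

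**Figure D4:**
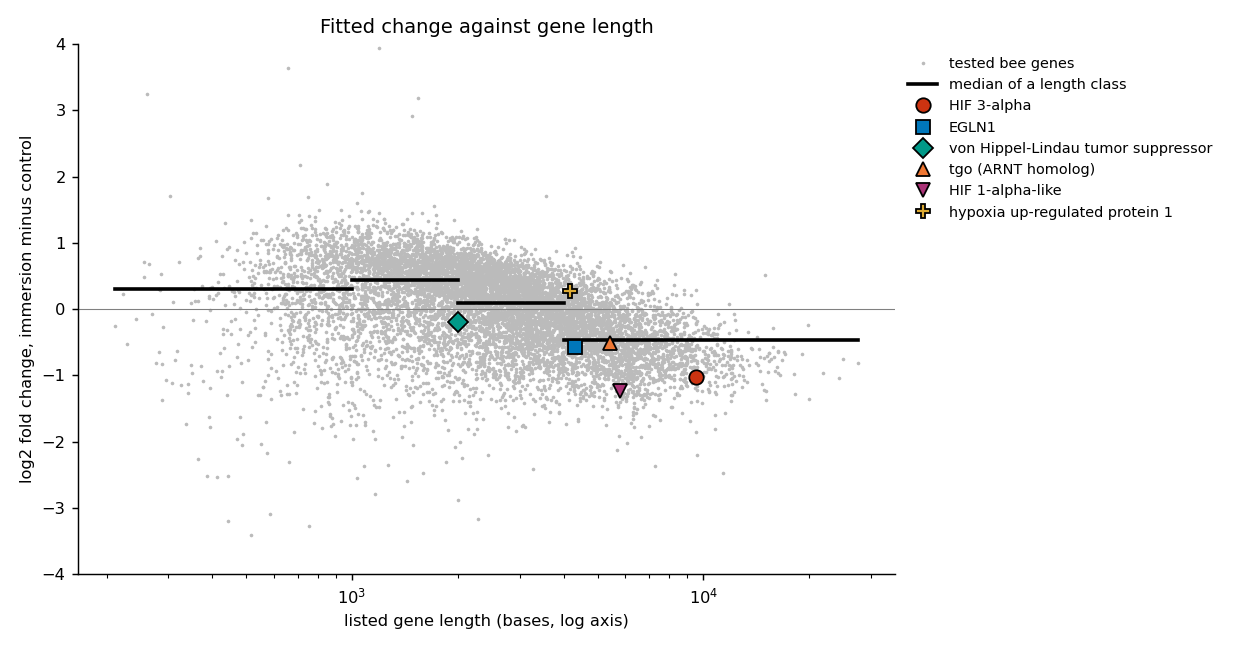
Fitted log2 fold change (vertical axis) against listed gene length in bases (horizontal log axis) for the 9250 tested bee genes, of which 7 lie outside the plotted range. Black bars are medians of length classes, falling from 0.44 for 1000 to 2000 bases to -0.47 for 4000 bases and over, and coloured markers are the 6 members.

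The deposited counts and TPM together give a rough estimate of the mean length of the transcripts behind each value. It is counts per TPM, scaled in each library by 634 bee genes of a single assembled transcript and at least 2000 bases. For HIF 3-alpha it was 4381 to 4550 bases in all libraries, under its listed 9558, at which the length trend was removed. For EGLN1 it was 3290 to 3434 bases, which lies below the class of 4000 bases and over in which it was ranked by its listed length. The 3368 genes listed at 2000 to 4000 bases had 0.09 as the median of their log2 fold changes and -0.33 as the lower quartile, and that of EGLN1 was -0.58. Those genes were classed by listed length and not by this estimate, so the comparison is of unlike lengths and gives EGLN1 no rank among them. For the von Hippel-Lindau gene the estimate was 1348, 1230 and 1044 bases in controls 1, 2 and 3 and 1519, 1308 and 1329 after immersion. It was shortest in control 3, where the TPM of the gene was highest. All these values lie below the 2000 bases set for the reference genes. For HIF 1-alpha-like it was 4410 bases in immersion 2 and 5213 to 5582 in the other libraries, and immersion 2 also had the lowest level of that gene. Hypoxia up-regulated protein 1 (4339 to 4401 bases) and tgo (4734 to 4910 bases) varied little. The former lies above its listed 4185 bases, so the estimate can overshoot.

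The genes whose pattern over the 6 libraries was most like that of EGLN1 were a beta-1,3-galactosyltransferase 5-like gene (TRINITY_DN9713_c1_g1), a gene described as protein fosB with the Swiss-Prot match Atf3 (TRINITY_DN4892_c0_g2) and a neurotrimin-like gene (TRINITY_DN6619_c0_g1), each with Pearson's r of 0.994 on log2 normalised CPM. Those most like HIF 1-alpha-like were an uncharacterized gene (TRINITY_DN1070_c0_g2, r = 0.999), an ecdysone-induced protein 74EF-like gene (TRINITY_DN3045_c2_g1, r = 0.998) and a serine-rich adhesin for platelets (TRINITY_DN5509_c0_g1, r = 0.998). These are descriptions over 6 libraries that share treatment and the length trend. They also differ in how common they are, since 56 bee genes exceeded r = 0.95 with EGLN1 and 623 did with HIF 1-alpha-like.

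Around the members, 7 lists of neighbouring genes were compared by count and median, and no gene of any list passed an adjusted p of 0.05 in edgeR (0 called, against 0% of bee genes). The list for the ligase that the von Hippel-Lindau protein serves had 5 tested genes, 1 of them that member, with a median log2 fold change of 0.20. Of these 2 were negative and 3 positive, and 0 had p below 0.05 before adjustment in edgeR. The median was -0.05 with control 1 as the only control. The scaffold of the ligase, cullin-2 (TRINITY_DN1517_c1_g2), had 163 ± 30.9 normalised CPM in the controls, against 133 ± 6.05 in immersed libraries. The adaptor elongin-C (TRINITY_DN858_c0_g1) had 49.1 ± 29.0 and 58.5 ± 5.67, and elongin B, described as transcription elongation factor B polypeptide 2 (TRINITY_DN4675_c0_g1), had 34.1 ± 20.9 and 53.0 ± 6.57 (SD, n = 3 each). Both adaptors spread widely among the controls, with 98.5, 60.22 and 24.36 TPM for elongin B in controls 1, 2 and 3. Elongin A, described as polypeptide 3 (TRINITY_DN4477_c0_g1), was taken by the name pattern but is not a subunit of that ligase. Its log2 fold change of 0.20 is the median of the list. It stood at 14.57 to 14.71 TPM in controls and 14.73 to 16.38 TPM after immersion.

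The list of transcription factors of the same family and of HIF coactivators had 18 tested genes, 2 of them members, with a median of -0.55. There were 7 lower and 2 higher with p below 0.05 before adjustment in edgeR, where the bee genes had 20.6% and 14.2%. With control 1 as the only control the median was 0.02, with 9 genes negative and 9 positive, and with the length trend removed it was -0.18, so the list has no direction that held across the fits. HIF 3-alpha, of the family by its description, is not in the list, whose pattern did not match that description. The pattern took rows described as nuclear receptor coactivator 5 (TRINITY_DN3770_c0_g1) and 7 (TRINITY_DN569_c0_g1) and proline-rich nuclear receptor coactivator 2-like (TRINITY_DN738_c1_g1). Named for nuclear receptors, they are not of that family, and all were lower with p below 0.05 before adjustment in edgeR. The first and last were chosen after their values were seen. It also took 4 circadian clock-controlled proteins, which are not of that family. Of these, TRINITY_DN1808_c0_g1, g2 and g3 come from 1 assembly cluster, so reads may be split among them, and TRINITY_DN17508_c0_g1 of another cluster, chosen after its value was seen, had a log2 fold change of -0.75 with overlapping groups. Both higher genes are among these: TRINITY_DN1808_c0_g1 had 171 ± 17.2 normalised CPM in the controls, against 269 ± 42.3 in immersed libraries, and TRINITY_DN1808_c0_g3, chosen after its value was seen, had 7.65 ± 1.97 and 12 ± 2.1 (SD, n = 3 each). TRINITY_DN1808_c0_g2, the list's most abundant, had 174 ± 34.4 and 209 ± 9.64, and its groups overlapped. Aryl hydrocarbon receptor nuclear translocator-like protein 1 (TRINITY_DN656_c0_g2), a clock partner related to tgo, had 38.7 ± 16.5 and 25.8 ± 0.52. A longer row of the same description and cluster (TRINITY_DN656_c0_g4), chosen after its value was seen, had 193 ± 46 and 154 ± 2.76, and its groups did not overlap. Nuclear receptor coactivator 7 (TRINITY_DN569_c0_g1), named by its description although its Swiss-Prot match is AAK1, had 771 ± 154 and 480 ± 41.0. With all libraries the log2 fold changes were -0.58 for the shorter translocator-like row, -0.32 for the longer row and -0.68 for the coactivator. With control 1 as the only control they were 0.00, -0.06 and -0.38. Chosen after their values were seen were the coactivator p300 and trachealess, the Drosophila factor for tracheal identity. The longer p300 row (TRINITY_DN2897_c1_g1) had 236 ± 72.0 and 161 ± 12.7, and trachealess (TRINITY_DN17851_c1_g1) had 19.5 ± 5.45 and 15.1 ± 0.588. Their log2 fold changes of -0.55 and -0.37 became -0.10 and 0.04 with control 1 as the only control. A shorter row described as p300 (TRINITY_DN895_c0_g2) had overlapping groups. Its log2 fold change of -0.88 became 0.16 with control 1 as the only control.

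The list of oxygenases that need oxoglutarate and oxygen had 14 tested genes, EGLN1 itself among them, with a median of -0.06. There were 6 lower (42.9%), EGLN1 among them, and 4 higher (28.6%) with p below 0.05 before adjustment in edgeR. The bee genes had 20.6% and 14.2%. The list's median was -0.14 with control 1 as the only control and 0.14 with the length trend removed. A procollagen-lysine dioxygenase (TRINITY_DN2925_c0_g1), which modifies collagen, had 280.0 ± 70.0 normalised CPM in the controls, against 164 ± 6.15 in immersed libraries. The histone demethylases of the JmjC kind TRINITY_DN3429_c0_g1 and TRINITY_DN207_c1_g1 had 293 ± 135 against 141 ± 10.8 and 167 ± 86.9 against 59.4 ± 15.1. They share 1 description, with the Swiss-Prot matches KDM3A and JMJD1C, and whether they are parts of 1 gene was not tested. Their log2 fold changes were -1.06 and -1.49 with all libraries and -0.29 and -0.41 with control 1 as the only control. In the other direction, the prolyl hydroxylase OGFOD1 (TRINITY_DN2477_c0_g1), which acts on a ribosomal protein, had 44.6 ± 4.53 and 64.1 ± 5.4 (SD, n = 3 each), so members of this enzyme family stood on both sides of 0.

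The list of haem enzymes and oxygen carriers had 8 tested genes, all described as haem enzymes. Its 1 globin, cytoglobin-2, did not pass the filter on low counts. All 8 changes were positive, with a median of 0.41. In edgeR 1 of them (12.5%) was higher with p below 0.05 before adjustment and 0 were lower. The bee genes had 14.2% higher and 20.6% lower at that level. With control 1 as the only control the median was 0.12 and 1 of the 8 was negative, and with the length trend removed the median was 0.27, again with 1 negative. The first enzyme of haem synthesis, 5-aminolevulinate synthase (TRINITY_DN7100_c0_g1), had 223 ± 35.7 normalised CPM in the controls, against 294 ± 42.0 in immersed libraries. Porphobilinogen deaminase (TRINITY_DN3540_c0_g1) had 88.0 ± 19.3 and 118 ± 20.1, and uroporphyrinogen decarboxylase (TRINITY_DN3248_c0_g1) had 32.1 ± 14.5 and 58.4 ± 8.28, with a log2 fold change of 0.86 (adjusted p = 0.125 in edgeR) that was 0.32 with control 1 as the only control. Protoporphyrinogen oxidase (TRINITY_DN2284_c0_g1), named by its description although its Swiss-Prot match is TAF13, had 19.2 ± 6.99 and 25.1 ± 2.03 (SD, n = 3 each). The list's genes had a median length of 1737 bases, in the length range where the bee genes as a whole were higher.

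Tracheal growth and gas signalling had 14 tested genes of 22 matched, with a median of -0.07. In edgeR 2 genes each way (14.3% each) had p below 0.05 before adjustment, where 20.6% of bee genes were lower and 14.2% higher. A fibroblast growth factor 2-like gene (TRINITY_DN4076_c0_g1), from the ligand family that guides tracheal branching in Drosophila, had 31.9 ± 7.71 normalised CPM in the controls, against 44.6 ± 3.10 in immersed libraries. Congested-like trachea (TRINITY_DN4698_c0_g1), a mitochondrial carrier named for the tracheal defect of its Drosophila mutant, had 19.2 ± 6.69 and 31.9 ± 0.794. Vascular endothelial growth factor C (TRINITY_DN8795_c0_g1) had 87.6 ± 12.3 and 94.8 ± 2.42, and a receptor of that family (TRINITY_DN10030_c0_g1) had 183 ± 52.4 and 122 ± 11.5 (SD, n = 3 each). With control 1 as the only control the log2 fold changes were 0.15 for the growth factor, against 0.48 with all libraries, 0.34 for congested-like trachea against 0.73, 0.37 for vascular endothelial growth factor C against 0.11, and -0.22 for the receptor against -0.58.

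The list of HIF targets of metabolism and stress had 23 tested genes with a median of -0.19, 9 lower and 1 higher with p below 0.05 before adjustment in edgeR, against 20.6% and 14.2% of bee genes. Its name pattern also took 4 rows that are neither glycolytic enolase nor hexokinase (enolase-phosphatase E1, both rows of mitochondrial enolase superfamily member 1-like, and ketohexokinase), of which 0 had p below 0.05 before adjustment in edgeR. The median was -0.23 with control 1 as the only control. The glycolytic enzyme fructose-bisphosphate aldolase (TRINITY_DN5718_c0_g2) had 3930 ± 296 normalised CPM in the controls, against 2219 ± 205 in immersed libraries (log2 fold change -0.82 ± 0.18 SE, adjusted p = 0.0907 in edgeR), and pyruvate kinase (TRINITY_DN289_c0_g1) had 1216 ± 57.2 and 889 ± 39.7. Enolase (TRINITY_DN3501_c0_g1) had 1201 ± 315 and 1245 ± 90.7, and glyceraldehyde-3-phosphate dehydrogenase 2 (TRINITY_DN612_c1_g1) 2210 ± 222 and 1890 ± 106, and the groups of these last 2 enzymes overlapped.

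Some further targets were chosen after their values were seen. Sestrin-1 (TRINITY_DN551_c0_g1), which restrains growth signalling under stress, had the smallest p of the target list. It stood at 91.93, 184.3 and 201.63 TPM in controls 1, 2 and 3 and at 50.34, 41.37 and 50.55 TPM after immersion, with every immersion library lower. Its log2 fold change was -1.70 ± 0.28 (SE, adjusted p = 0.0696 in edgeR), -1.01 with control 1 as the only control and -0.99 with the length trend removed. Phosphoenolpyruvate carboxykinase (TRINITY_DN2037_c0_g1), of glucose synthesis, had 2234 ± 774 and 932 ± 103 normalised CPM, a log2 fold change of -1.26 that was -0.71 with control 1 as the only control. L-lactate dehydrogenase (TRINITY_DN14418_c0_g1), the enzyme of anaerobic glycolysis, had 45.2 ± 12.2 and 31.3 ± 3.77 with overlapping groups, and its log2 fold change of -0.53 was -0.08 with control 1 as the only control. Also chosen so, charybde (TRINITY_DN4443_c0_g1), the growth inhibitor that HIF induces in Drosophila, had 91.4 ± 9.03 and 106 ± 2.45 (SD, n = 3 each).

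The chaperones of the endoplasmic reticulum, the compartment of hypoxia up-regulated protein 1, had 13 tested genes, that member among them, with a median of 0.25. Of these 2 were lower (15.4%) and 3 higher (23.1%) with p below 0.05 before adjustment in edgeR, against 20.6% and 14.2% of bee genes. The median was 0.10 with control 1 as the only control. Protein disulfide-isomerase A3 (TRINITY_DN11546_c0_g1), which forms disulfide bonds, had 248 ± 35.3 normalised CPM in the controls, against 361 ± 31.1 in immersed libraries. Its groups did not overlap, and its log2 fold change of 0.54 was 0.32 with control 1 as the only control. The groups of the other 3 named chaperones overlapped: BiP (TRINITY_DN1619_c0_g1) had 576 ± 168 and 490.0 ± 67.3, endoplasmin (TRINITY_DN1581_c0_g1) 287 ± 72.2 and 320.0 ± 26.6, and calreticulin (TRINITY_DN195_c0_g1) 965 ± 141 and 898 ± 104 (SD, n = 3 each).

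**Figure D5:**
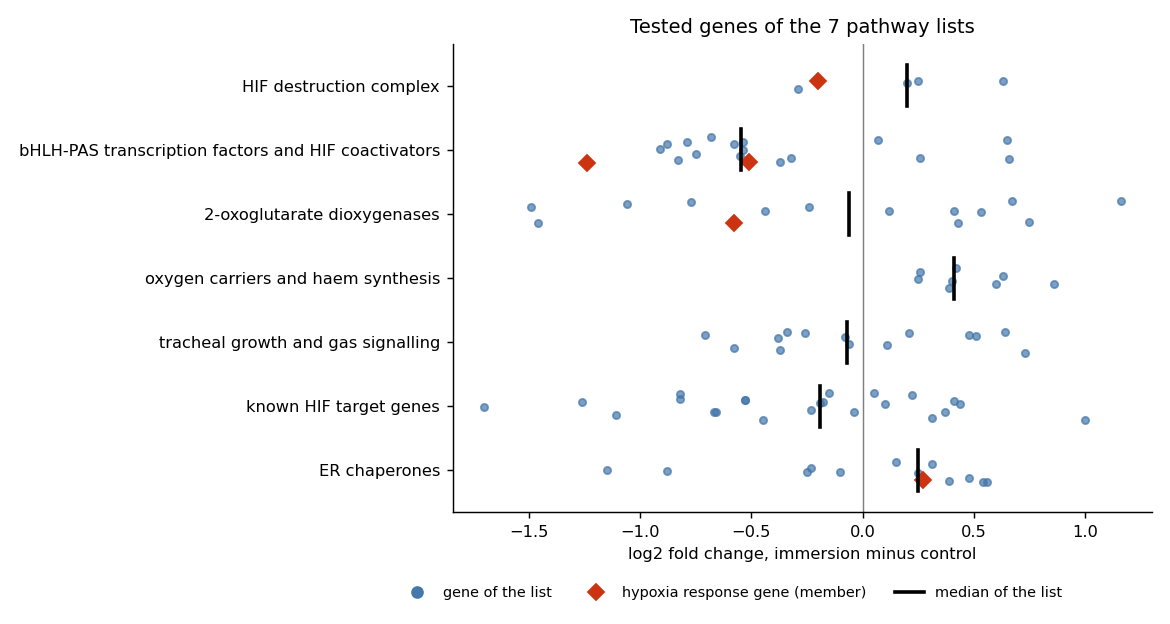
Fitted log2 fold change (horizontal axis) of each tested gene in the 7 lists of pathway neighbours, with list medians as black bars and members as red diamonds. In this fit of all 6 libraries the factor and coactivator list has its median at -0.55, the haem list at 0.41, and the other 5 lie between -0.19 and 0.25.

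Summed markers of muscle, nervous system and fat body ran lower after immersion alongside the members, with overlap between the groups for muscle. For tracheal and epidermal markers only controls 2 and 3 stood above all immersion libraries. Muscle markers had a summed level of 41455 to 55674 normalised CPM in controls and 27103 to 44014 after immersion, with 24 of 40 tested genes lower with p below 0.05 before adjustment in edgeR. Nervous system markers summed to 1029 to 1558 and 894 to 975 (14 of 30 lower), and fat body markers to 21573 to 83078 and 12450 to 14503 (4 of 8 lower). Tracheal and epidermal markers had only 2 tested genes, which summed to 17.9 to 30.8 and 17.9 to 20.8. The median log2 fold changes were -0.86 for muscle, -0.59 for nervous system, -0.65 for fat body and -0.33 for tracheal and epidermal markers. With control 1 as the only control these medians were -0.42, -0.22, -0.29 and 0.21 in the same order. The shares lower were 60% for muscle, 46.7% for nervous system and 50% for fat body markers, where all bee genes had 20.6% and those of 4000 bases and over 46.4%. The median listed lengths were 6074, 4067 and 2972 bases, against 2561 for all tested bee genes. No tested gene of these 4 lists was at 0 in any library, and the part of tissue make-up in the members' differences was not tested.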

How the data were processed

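RNA was sequenced in 6 libraries, 3 control and 3 immersion, prepared from total RNA with oligo(dT) beads, per the labels' protocols. Tools listed in the submitters' processing notes are edgeR, Salmon and cutadapt 1.9, with no role or order; how the assembly was made is not given in the sources used here. Estimated counts were deposited by the authors for 37061 assembled genes, beside TPM values summing to 999511 to 999590 per library. No sequences or coordinates were used here.

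Genes whose description ends with a Hymenoptera genus (11315) were fitted together, since worm and mammal reads differ between libraries. Estimated counts were rounded and tested in edgeR 4.0.16 under R 4.3.3 (filterByExpr, TMM, estimateDisp, glmQLFit, glmQLFTest with the legacy option, treatment as the only term), two-sided, with Benjamini-Hochberg adjustment over the 9250 genes kept. The fit was tested on simulated data. Values are TPM as deposited or normalised CPM, with SD over 3 libraries. TPM ratios were compared with exact permutation tests in scipy 1.17.1. Control 1 as the only control means a fit with a term for the 4 libraries above 100 CPM of worm genes. The implied transcript length used single-transcript bee genes of at least 2000 bases and 5 TPM in every library.

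Lists are patterns on the description column. Named are all members, up to 4 non-members per list with the highest mean TPM, and the 3 genes most like EGLN1 and HIF 1-alpha-like. The members and lists were chosen with earlier results of these data known. Alternatives were DESeq2 1.42.0, limma 3.58.1 (voom with and without library weights, and log2 TPM with pseudocounts 1 and 0.1), RLE and upper-quartile factors, other filters, the whole table, a replicate block, a length trend (loess, span 0.3), and each library left out. The length trend and voom without weights were added after the data were seen.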

Additional observations from a re-analysis of the deposited data

Results flagged for a closer look

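Outside the bee genes, the same name pattern matched 3 worm genes (2 rows of hif-1 and glb-1, by their Swiss-Prot names) and 5 mammalian rows (HIF1A, EGLN2 and HYOU1). The worm rows were noted because they hold a signal that no comparison used: their summed level was 13.48, 12.2 and 18.26 TPM in immersion libraries 1, 2 and 3, against 6.06 TPM in control 1 and 0 in controls 2 and 3. The mammalian rows summed to 49.64 TPM in control 1, 0 in controls 2 and 3, and 9.11 to 14.47 TPM after immersion. Their source was not tested. A search by name over all species would have counted them as hypoxia genes of the bee.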

How the results depend on the processing

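No bee gene, member or list gene passed in edgeR with all 6 libraries (0 each). DESeq2 called 2028 bee genes, 3 members and 20 other list genes. Limma-voom with library weights called 6369, 5 and 68. Removal of the length trend called 26 bee genes, with no member. The term for libraries with worm reads leaves 1 control library to set against immersion, so only its effect sizes are used. With 1 library left out the calls ran from 0 to 4912 bee genes, 0 to 4 members and 0 to 55 list genes; the highest of each came without control 1, and without control 3 there were 362, 1 and 6. The cause of these differences was not tested. The other alternatives called 0, among them the whole table (0 of 17998 genes, 22.5% at an unadjusted p under 0.05). Same-numbered libraries deviated together with r of -0.144, 0.134 and 0.158, and control 1 correlated best with immersion 2. Correlations this weak, of deviations from means of 3 libraries, cannot decide whether the numbers pair the libraries. The replicate block called 0 bee genes and 0 members. Over the 20 alternatives 5 of the 6 tested members kept their direction. The von Hippel-Lindau gene turned from -0.20 to 0.08 with control 1 as the only control. Upper-quartile scaling moved the median of all bee genes to 0.12 from 0.02, and the whole-table fit had a median of 0.20 over all its genes. Leaving out the fit with control 1 as the only control, adjusted p ran from 6.14e-05 to 0.329 for HIF 3-alpha and 0.000106 to 0.329 for HIF 1-alpha-like. It ran from 0.00142 to 0.329 for EGLN1 and 0.000863 to 0.625 for tgo. The lowest of each came from limma-voom with library weights and the highest from edgeR. With 3 libraries a group, changes near those of the von Hippel-Lindau gene and hypoxia up-regulated protein 1 lie within the spread.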
